A study of Homo sapiens with 72 samples.

Results

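Directly irradiated and bystander IMR-90 cells were compared with each other 24 hours after exposure, with no control array in the contrast. The comparison used the 8 of the 72 arrays whose labels give 24 hours and either α-irradiation or the bystander position, 4 of each, and they were paired by the number of the experiment. IMR-90 is a line of normal human lung fibroblasts, and no allele or drug was added. Irradiated cells had received 0.5 Gy of α-particles through a thin plastic base, and bystander cells had grown beside them in the same dish, in a contiguous layer, on a base thick enough to stop the particles. The irradiated and bystander cells were separated 24 hours after exposure, and the controls, used here only beside the results, were sham-irradiated dishes. RNA of each sample was hybridised to 1 array with 1 dye.

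Ionising radiation breaks DNA, and the ATM kinase that senses the breaks stabilises the transcription factor p53. Targets of p53 halt the cell cycle, repair damage, feed back on p53 or promote cell death. Arrested cells take genes of replication and mitosis down through the p21 inhibitor and the DREAM repressor complex, which binds CHR elements of many mitotic promoters, where the activator NF-Y binds CCAAT boxes. Bystander cells receive signals from neighbours that were hit, and NF-κB driven cytokine genes are a known part of their response.

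Levels are log2 intensities after all arrays were scaled to the same 75th percentile, and a difference is irradiated minus bystander within an experiment, given as the mean ± SD over the 4 experiments. Before scaling, the 75th percentile was 11.08, 9.19, 9.48 and 9.95 on the irradiated arrays of experiments 1 to 4 and 10.58, 9.76, 10.29 and 10.02 on the bystander arrays. Experiment 1 was thus brighter in irradiated cells and experiments 2 and 3 in bystander cells. Experiments 3 and 4 stood apart from experiments 1 and 2 in both treatments. The median level of 40 G2/M and mitosis genes was 9.50, 9.96, 7.31 and 11.51 in irradiated cells and 9.76, 9.82, 8.28 and 12.41 in bystander cells, so it was lowest in experiment 3 and highest in experiment 4. For 18 NF-κB cytokine and chemokine genes the order was turned, with medians of 15.92 and 15.96 in experiment 3 against 10.01 and 9.40 in experiment 4. IL6, an inflammatory cytokine, read 18.46 in irradiated and 18.18 in bystander cells of experiment 3, and 17.47 in its control, where no other array of 24 hours passed 10.79. These offsets were shared by the irradiated and bystander arrays of an experiment, and the comparison within experiments removed them. The same-numbered arrays deviated from their group means together, with correlations from 0.419 to 0.895 across probes. Arrays of experiments 1 and 2 also correlated across numbers, at 0.576 and 0.456, above the 0.419 of pair 2, and the other different-numbered pairs were below 0. Across probes, the differences correlated between experiments at 0.321 for experiments 1 and 4 and at 0.3 for experiments 2 and 3. For the other combinations of experiments the correlations ran from -0.375 to -0.0686. Pairs 1, 2 and 4 shared a slide and pair 3 lay on 2 slides.

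All 10 fibroblast markers, led by the collagen gene COL1A2, were well above background on all 8 arrays. Of the markers of other cells, 1 of 6 epithelial, 2 of 5 endothelial and 1 of 6 blood cell genes were above background on no array. These were the keratin gene KRT5, the endothelial adhesion genes PECAM1 and CDH5, and the lysozyme gene LYZ. On all 8 arrays 3 of 6 epithelial genes (KRT18, SFTPC and SCGB1A1), 3 of 5 endothelial genes (VWF, KDR and TEK) and 2 of 6 blood cell genes (CD3E and CD14) were above background. The epithelial cadherin gene CDH1 and the leukocyte gene PTPRC were above background on 1 array each and EPCAM on 3. KRT18, TEK and CD14 were the brightest genes of the epithelial, endothelial and blood cell lists. On the log2 scale the summed epithelial intensity was 11.57, 11.95, 13.31 and 13.28 in irradiated and 11.69, 11.61, 12.92 and 13.14 in bystander cells, higher in experiments 3 and 4 in both. The summed endothelial intensity ran from 12.14 to 13.39 and the summed blood cell intensity from 8.02 to 8.96 over the 8 arrays. The part of these genes in the results was not tested.

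No probe separated irradiated from bystander cells after adjustment over the array. Of 25246 probes tested with limma, 0 passed an adjusted p below 0.10, a share of 0%, and the smallest adjusted p was 1.00. At an unadjusted limma p below 0.05 stood 671 probes (2.66%), of which 452 (1.79%) were higher in irradiated cells and 219 (0.867%) lower. Such a limit passes a share of 0.05 on average where no probe differs, which is more than the 2.66% seen. Without scaling 3 probes were called lower. A fit that pooled the spread over all 6 time points used 18 residual degrees of freedom in place of 3. It called 22 probes higher (0.0871%) and 10 lower (0.0396%). That fit takes 1 spread for all times. The median over 51 p53 targets had an SD between experiments of 0.16 at 24 hours, against 0.04 to 0.06 at the earlier times. Pooled p-values can thus be too small for such genes at 24 hours. For the mitosis genes the SD was 0.38 at 24 hours and 0.43 at 6 hours. The differences of 24 hours therefore stand below as values. The unadjusted counts of each gene list are read against 12703 genes with 1 probe each. Of these, 255 (2.01%) were higher and 142 (1.12%) lower at the same unadjusted limit. Leaving out experiments 1 to 4 in turn gave 211, 500, 171 and 301 higher and 140, 301, 53 and 130 lower. The fit with no scaling gave 7 higher and 109 lower, with no replicate block 17 and 2, and with the controls 44 and 16.

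At the head of the higher side stood targets of p53 such as FDXR, DDB2 and GDF15, and at the head of the lower side stood RRM2 of the replication list and CENPA and NEK2 of the mitosis list. By the smallest unadjusted p among genes of the same sign in all 4 experiments, the higher side was led by VWCE, FDXR, CYFIP2, PIDD1, GDF15, SLITRK2, BBC3, DDB2, TNFRSF10B and SPATA18. The lower side was led by RRM2, KCNK3, GTSE1, TICRR, FAM83D, NEK2, PBK, CENPA, ARHGAP32 and SMC2. None of these 20 passed an adjusted threshold in the fit of 24 hours alone. With the pooled spread, GDF15, SLITRK2, BBC3, KCNK3, TICRR, FAM83D, PBK, CENPA, ARHGAP32 and SMC2 did not pass either (limma, adjusted p from 0.112 to 0.565). The others of the 20 passed there. The same sign in all 4 experiments was seen in 5.79% of all probes for higher and 3.82% for lower, so the sign alone marks no gene.

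**Figure D1:**
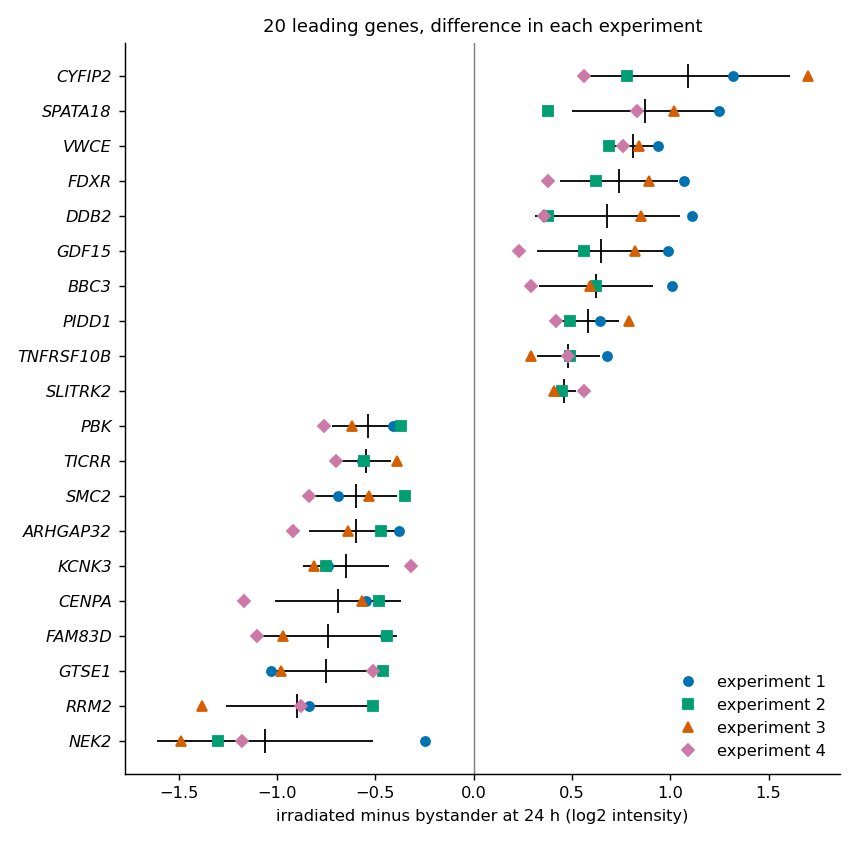
Difference between irradiated and bystander cells at 24 h (log2 intensity) for the 10 leading genes of each direction, with 1 point per experiment, a tick at the mean and a line of ± 1 SD. CYFIP2 had the widest range of the higher genes, from 0.56 to 1.70, and VWCE one of the narrowest, from 0.69 to 0.94, while NEK2 ran from -1.49 to -0.25.

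Among the p53 targets of repair and metabolism, FDXR, which passes electrons to ferredoxins in mitochondria, had log2 intensities of 13.52, 13.64, 12.81 and 12.85 in irradiated cells of experiments 1 to 4. In bystander cells FDXR read 12.45, 13.02, 11.91 and 12.47. Irradiated cells were higher in each experiment, although the groups overlapped because the experiments differed in level. The difference was 0.74 ± 0.30, or 1.67-fold (limma, adjusted p = 1.00), and it passed with the pooled spread (limma, adjusted p = 0.00554). DDB2, the damage-recognition subunit of nucleotide excision repair, read 13.25, 13.18, 12.50 and 12.39 in irradiated and 12.14, 12.80, 11.65 and 12.03 in bystander cells. Its difference was 0.68 ± 0.37 (pooled-spread limma adjusted p = 0.0134), with the largest gap in experiment 1. SPATA18, known for the disposal of damaged mitochondria, had a difference of 0.87 ± 0.37 on a dim probe whose 4 irradiated arrays all lay above the 4 bystander arrays, and of 0.79 ± 1.05 on a brighter probe that was lower in irradiated cells of experiment 2. GPX1, a peroxidase, differed by 0.30 ± 0.20. POLH, a translesion polymerase, and RRM2B, the p53-driven ribonucleotide reductase subunit, differed by 0.45 ± 0.52 and 0.26 ± 0.14. Of the 16 genes of this group, all measured, 4 were higher at an unadjusted p below 0.05 and 0 lower, and their median difference was 0.24.

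Of the arrest and feedback targets, CDKN1A, which encodes the cyclin-dependent kinase inhibitor p21, read 14.88, 13.70, 14.40 and 14.80 in irradiated cells and 13.10, 13.61, 13.95 and 13.88 in bystander cells. Its difference of 0.81 ± 0.73 ran from 0.09 in experiment 2 to 1.77 in experiment 1. It did not pass with the pooled spread (limma, adjusted p = 0.138). A dimmer second CDKN1A probe gave 0.81 ± 0.68, from -0.04 in experiment 4 to 1.44 in experiment 2. The stress-induced secreted factor GDF15 read 16.19, 15.76, 18.36 and 15.34 in irradiated and 15.20, 15.19, 17.53 and 15.12 in bystander cells. GDF15 was higher by 0.65 ± 0.33, with experiment 3 well above the others in both treatments. RPS27L, a ribosomal protein paralogue induced by p53, differed by 0.45 ± 0.21, and TRIAP1, a p53-induced apoptosis inhibitor, by 0.36 ± 0.13. MDM2, the ubiquitin ligase that degrades p53, differed by 0.44 ± 0.28 and had a dim second probe at 0.22 ± 1.28. BTG2, an antiproliferative gene, differed by 0.41 ± 0.22, GADD45A, a stress sensor, by 0.41 ± 0.45, and SESN1, a sestrin, by 0.32 ± 0.49. PPM1D, the phosphatase that ends p53 signalling, stood at 0.18 ± 0.16, and without scaling at -0.06. Of the 18 measured genes of 20 listed, 10 were higher at an unadjusted p below 0.05, 0 were lower and 13 were higher in all 4 experiments, against 6.42% of all genes for the last count. The median difference was 0.33. The 10 became 4 without experiment 1, 12 without experiment 2, 8 without experiment 3 and 6 without experiment 4. Over all 12703 genes the higher count of 255 became 211, 500, 171 and 301 in the same order.

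Among the death genes, TNFRSF10B, the TRAIL death receptor DR5, read 13.81, 13.63, 14.26 and 13.09 in irradiated and 13.13, 13.14, 13.97 and 12.61 in bystander cells, a difference of 0.48 ± 0.16, with 0.33 ± 0.16 on a second probe. Its decoy receptor TNFRSF10C differed by 1.06 ± 0.71, from 0.11 in experiment 2 to 1.71 in experiment 1. FAS, another death receptor, stood at 0.28 ± 0.50. BBC3, the BH3-only protein PUMA, read 11.74, 11.80, 13.49 and 10.82 in irradiated and 10.73, 11.18, 12.90 and 10.53 in bystander cells. That probe differed by 0.62 ± 0.29, and the brightest BBC3 probe by 0.29 ± 0.30, lower in irradiated cells of experiment 1. PHLDA3, an inhibitor of AKT, was higher on all 4 irradiated arrays than on any bystander array, by 0.56 ± 0.31, as 0.17% of all probes were. AEN, a nuclease, differed by 0.46 ± 0.48. Other members stood near 0, with PMAIP1 at -0.06 ± 0.26, TP53I3 at 0.02 ± 0.31 and BCL2L1, a survival gene, at -0.04 ± 0.16. Of 17 measured genes of 18 listed, 4 were higher at an unadjusted p below 0.05 and 0 lower, with a median of 0.28. Over the 3 p53 lists together, 18 of 51 genes (35.3%) were higher at that limit and 0 lower. Without experiment 2 the 4 genes of the death list became 7 and those of the repair list 6, and without experiment 3 the latter became 2. With no replicate block 2 genes of each p53 list were left at the limit. With no scaling, the median of all genes moved to -0.22, and the 3 p53 lists stood at 0.09, 0.04 and -0.00, above that shift, while their counts at the unadjusted limit went from 10, 4 and 4 to 0, 1 and 0. With the controls in the fit these counts were 6, 1 and 2.

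Leading genes outside the lists included CYFIP2, a subunit of a complex that regulates actin, which read 8.65, 9.10, 9.54 and 8.74 in irradiated and 7.33, 8.33, 7.84 and 8.18 in bystander cells. CYFIP2 was higher by 1.09 ± 0.52, or 2.13-fold, without overlap of the groups (pooled-spread limma adjusted p = 0.00554). VWCE, named for its von Willebrand factor C and EGF domains, read 11.53, 12.05, 11.32 and 10.50 against 10.59, 11.37, 10.48 and 9.74, a difference of 0.81 ± 0.11. PIDD1, a death-domain protein listed as LRDD, differed by 0.58 ± 0.16, again without overlap. SLITRK2, a transmembrane protein of neurons, differed by 0.46 ± 0.06.

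Promoters of 3 of these p53 targets are shown because they hold a match to the p53 half-site, searched on both strands in the 250 bases before each start. The sequences are the last 120 bases before the start in RefSeq (GRCh38.p14), on the strand of the gene. Capitals mark the half-site, or in AEN the full site of 20 letters with at most 2 mismatches.
FDXR, chr17:74872995-74873114, minus strand: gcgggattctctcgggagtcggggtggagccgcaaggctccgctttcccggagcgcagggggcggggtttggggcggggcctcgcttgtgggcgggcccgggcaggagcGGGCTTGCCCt
RPS27L, chr15:63157478-63157597, minus strand: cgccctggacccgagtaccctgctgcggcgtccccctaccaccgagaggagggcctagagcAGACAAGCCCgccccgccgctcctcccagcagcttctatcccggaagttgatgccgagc
AEN, chr15:88621220-88621339, plus strand: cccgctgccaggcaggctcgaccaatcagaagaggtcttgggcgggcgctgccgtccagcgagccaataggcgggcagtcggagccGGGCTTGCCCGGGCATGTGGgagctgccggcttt
A half-site was found in 5.53% of 27305 promoters of all genes and a full site of this kind in 0.542%. Promoters were at hand for 38 of the 51 measured p53 targets, and since the other targets were not searched no share of the list is given. Of these 38, 5 held a half-site and 33 did not, and 2 held a full site. The match is a description of letters and is no measured binding.

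Genes of mitosis lay on the other side. All 40 G2/M and mitosis genes were measured, and each of the 40 had a lower mean in irradiated than in bystander cells. At an unadjusted p below 0.05, 27 of the 40 (67.5%) were lower and 0 higher, and 16 were lower in all 4 experiments, against 3.89% of all genes. Their median difference was -0.52, and the medians within experiments 1 to 4 were -0.28, -0.14, -0.86 and -0.87. The gap was thus widest in experiments 3 and 4, the experiments in which the level of these genes was lowest and highest. Without experiments 1, 2, 3 and 4 in turn the count was 25, 32, 10 and 9. It was 19 with normexp background correction, 11 without a filter on dim probes and 16 with the slide as a random block. With the controls in the fit or no replicate block it was 0. Over all 12703 genes the lower count of 142 became 140, 301, 53 and 130 without experiments 1 to 4. That count was 101 with normexp, 205 with no filter, 145 with the slide block, 16 with the controls and 2 with no replicate block. In bulk RNA, fewer cells in mitosis and less of each RNA per cell cannot be told apart.

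KIF20A, a kinesin of cytokinesis, read 9.14, 9.22, 5.80 and 10.52 in irradiated and 9.57, 9.51, 7.48 and 11.63 in bystander cells. Its difference was -0.88 ± 0.64 (limma, adjusted p = 1.00, and 0.0767 with the pooled spread). CENPA, the histone H3 variant of centromeres, read 7.23, 7.05, 5.83 and 8.96 in irradiated and 7.78, 7.53, 6.40 and 10.13 in bystander cells, a difference of -0.69 ± 0.32. In both genes each irradiated array lay below its bystander partner while the groups overlapped across experiments. NEK2, a centrosomal kinase, read 6.55, 5.85, 3.07 and 7.88 against 6.81, 7.15, 4.56 and 9.06, and 7 of its 8 arrays were well above background. NEK2 differed by -1.06 ± 0.55 on this probe. A brighter second probe, used for the list, gave -0.68 ± 0.59, with 0.04 in experiment 2. The spindle proteins NUSAP1 and KIF11 differed by -0.64 ± 0.35 and -0.54 ± 0.24. PLK1, the kinase of mitotic entry, differed by -0.53 ± 0.36, its target cyclin gene CCNB1 by -0.43 ± 0.42 and the partner kinase CDK1 by -0.62 ± 0.49. MKI67, the proliferation antigen Ki-67, had -0.85 ± 0.76, from -0.09 in experiment 2 to -1.88 in experiment 3. The members nearest to 0 were CKS2 at -0.06 ± 0.46 and ECT2 at -0.11 ± 0.34. Outside the list, GTSE1, a microtubule-binding protein of G2, differed by -0.75 ± 0.30, FAM83D, a spindle protein, by -0.74 ± 0.35, PBK, a mitotic kinase, by -0.54 ± 0.18, and SMC2, a condensin core subunit, by -0.60 ± 0.21.

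**Figure D2:**
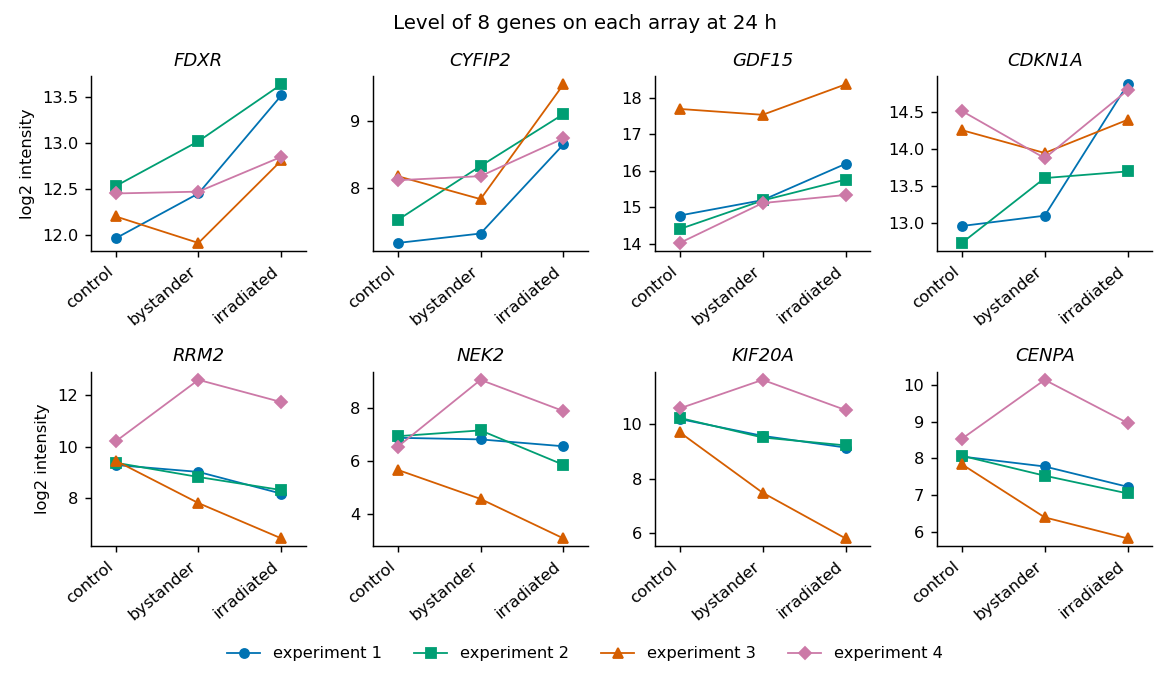
Level of 8 genes (log2 intensity) on the control, bystander and irradiated array of each experiment at 24 h, with 1 line per experiment. Every line goes up from bystander to irradiated in FDXR, CYFIP2, GDF15 and CDKN1A and down in RRM2, NEK2, KIF20A and CENPA. On the bystander and irradiated arrays the lines of experiments 3 and 4 lie farthest apart in the lower row.

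Promoters of GTSE1 and of 4 genes of the mitosis list follow because they show letters for which mitotic promoters are known, the CHR core TTTGAA and the CCAAT box. Both were searched on both strands in the 250 bases before the start, and capitals mark them in the last 120 bases (RefSeq, GRCh38.p14, strand of the gene).
GTSE1, chr22:46296750-46296869, plus strand: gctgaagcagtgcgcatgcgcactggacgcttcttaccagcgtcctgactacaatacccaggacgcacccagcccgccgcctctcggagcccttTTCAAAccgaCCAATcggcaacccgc
KIF11, chr10:92593010-92593129, plus strand: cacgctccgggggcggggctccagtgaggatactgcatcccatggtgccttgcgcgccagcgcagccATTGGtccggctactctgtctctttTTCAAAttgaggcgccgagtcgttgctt
PLK1, chr16:23678769-23678888, plus strand: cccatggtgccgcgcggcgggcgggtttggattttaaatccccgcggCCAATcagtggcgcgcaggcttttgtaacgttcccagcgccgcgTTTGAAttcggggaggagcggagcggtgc
CCNB2, chr15:59105026-59105145, plus strand: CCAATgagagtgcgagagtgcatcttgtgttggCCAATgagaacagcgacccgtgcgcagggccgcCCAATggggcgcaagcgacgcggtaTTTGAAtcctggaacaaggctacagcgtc
CENPA, chr2:26785936-26786055, plus strand: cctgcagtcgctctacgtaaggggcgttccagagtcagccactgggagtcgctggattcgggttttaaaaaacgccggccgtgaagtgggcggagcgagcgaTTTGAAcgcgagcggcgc
Promoters were at hand for 34 of the 40 G2/M and mitosis genes and 33 of the 37 replication genes. TTTGAA occurred in 19 of the 34 (55.9%), 1 of the 33 (3.03%) and 13.6% of all 27305 promoters. CCAAT occurred in 79.4% of the mitosis promoters, 51.5% of the replication promoters and 33% of all promoters. Of the 10 leading lower genes 8 had a promoter at hand, 2 of them with TTTGAA (25%) and 5 with CCAAT (62.5%). These shares describe letters in the promoters at hand and are no measured binding. The window shown for CENPA holds no CCAAT, and its 2 lie farther from the start. No marked matches overlap each other in the sequences printed. CCNB2, the cyclin with 3 CCAAT boxes in the window shown, differed by -0.41 ± 0.36 between irradiated and bystander cells.

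Genes of replication and the G1/S transition had mostly negative differences. Of 37 measured genes of 40 listed, 7 were lower at an unadjusted p below 0.05 and 0 higher, 29 had a negative mean, and the median difference was -0.26. RRM2, the cell-cycle subunit of ribonucleotide reductase, read 8.16, 8.30, 6.41 and 11.74 in irradiated and 9.01, 8.81, 7.79 and 12.61 in bystander cells. RRM2 differed by -0.90 ± 0.36, or 1.87-fold (limma, adjusted p = 1.00, and 0.0142 with the pooled spread), and a second probe gave -0.72 ± 0.30. The replicative helicase partners GINS3 and CDC45 differed by -0.41 ± 0.09 and -0.52 ± 0.47, and FEN1, a flap endonuclease, by -0.33 ± 0.09. A second FEN1 probe gave -0.17 ± 0.70, with 0.77 in experiment 2. PCNA, the sliding clamp and also a p53 target, stood at 0.07 ± 0.47, and CCND1, a cyclin of G1, at 0.10 ± 0.09. TICRR, which starts replication origins, differed by -0.55 ± 0.13 and by -0.25 ± 0.60 on a second probe. Without experiment 3 the 7 became 2, and with no replicate block or with the controls in the fit 0. Without experiment 2 they became 16, with 1 gene higher. Over all 12703 genes the lower count of 142 became 53 without experiment 3 and 301 without experiment 2. That count was 2 with no replicate block and 16 with the controls. The median was -0.10 with normexp and, without scaling, -0.49. Replication-dependent histone genes had a median of 0.15 over 28 measured genes of 37 listed and 1 of them, H1-2 at 0.41 ± 0.41, higher at the unadjusted limit, and 0 without experiment 3. Without experiment 2 the histone list had 2 higher and 1 lower. Its median was 0.05 without experiment 2 or 3, 0.24 without experiment 1 and, without scaling, -0.09. Near-identical histone copies can share a probe's signal.

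**Figure D3:**
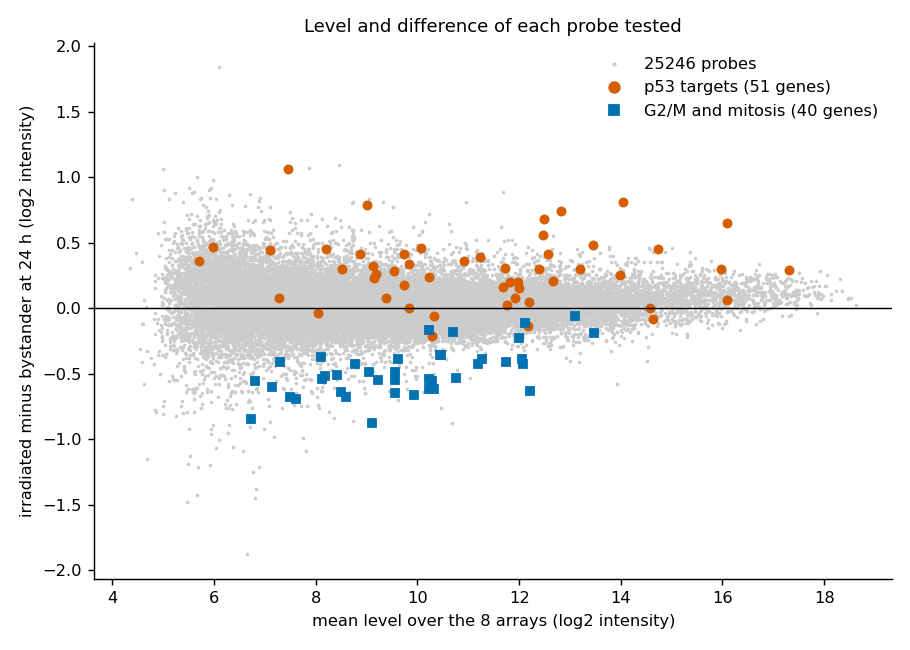
Mean level over the 8 arrays against the difference between irradiated and bystander cells at 24 h (both log2 intensity), with a grey point for each of 25246 probes, orange circles for the 51 p53 targets and blue squares for the 40 G2/M and mitosis genes. The p53 targets lie mostly above 0 over the whole range of levels, and the mitosis genes all lie below 0.

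KCNK3, a two-pore potassium channel, read 9.64, 9.33, 9.46 and 6.16 in irradiated and 10.38, 10.07, 10.26 and 6.48 in bystander cells, and 9.96, 10.68, 11.79 and 12.16 in controls. Both treatments were far below the control in experiment 4, and irradiated cells were a little below bystander cells in each experiment, by -0.65 ± 0.22. A dimmer KCNK3 probe gave -0.19 ± 0.66, with a positive difference in experiment 2. ARHGAP32 was lower on all 4 irradiated arrays than on any bystander array, by -0.60 ± 0.24, as 0.0713% of all probes were, and a second probe stood at -0.07 ± 0.24.

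Cytokine and chemokine genes of the NF-κB response stood near 0. The median difference of 18 measured genes of 23 was 0.02, with 2 higher at an unadjusted p below 0.05 and 0 lower, and the medians within experiments 1 to 4 were 0.06, -0.30, 0.04 and 0.36. The count became 0 higher and 1 lower without experiment 1, 3 higher without experiment 2, 1 higher without experiment 3 or 4, and 0 with quantile scaling, no scaling, no filter, no replicate block or the controls in the fit. The neutrophil attractant CXCL8 (IL8) read 12.43, 11.87, 16.68 and 13.22 in irradiated and 12.31, 12.59, 16.80 and 12.78 in bystander cells, a difference of -0.07 ± 0.49. IL1B, the interleukin-1β gene, stood at 0.01 ± 0.39, and the chemokines CXCL2, CXCL3 and CXCL5 at 0.03 ± 0.38, 0.01 ± 0.62 and -0.06 ± 0.14. CXCL3 was at -0.23 without scaling. Beside the controls of 24 hours, CXCL8 stood at 1.82 ± 1.02 in irradiated and 1.89 ± 1.23 in bystander cells. Those 2 values share the control arrays. The members past the unadjusted limit were IL6, higher by 0.42 ± 0.34, and the alarmin IL33, higher by 0.48 ± 0.40. NF-κB subunits and feedback genes had a median of 0.03 over 16 genes with 0 at the limit in either direction (1 higher without experiment 2), and NFKBIA, the IκBα inhibitor, was at 0.04 ± 0.23 and at -0.20 without scaling. Of 17 interferon-stimulated genes 0 were higher and 2 lower, ISG15 by -0.58 ± 0.65 in 3 experiments with a value and OAS3 by -0.65 ± 0.72. These 2 became 0 without experiment 3, with the authors' table, with no filter on dim probes or with the slide as a random block, and 1 without experiment 4. A second OAS3 probe stood at -0.13 ± 0.68, positive in experiments 2 and 3.

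Several stress lists had medians a little above 0. Metallothioneins, which bind zinc and other metals, had a median of 0.26 over 14 genes, with MT1M at 0.42 ± 0.15 and MT1E at 0.34 ± 0.34. MT1M read 12.54, 12.43, 13.25 and 12.74 in irradiated and 11.91, 12.13, 12.89 and 12.36 in bystander cells. Near-identical metallothionein genes can share a probe's signal. The 2 metallothioneins at the unadjusted limit became 8 without experiment 4, 1 without experiment 1 or 3, and 0 without scaling, with no replicate block or with the controls in the fit. Without scaling their median was 0.02. Genes of the unfolded protein and amino acid responses had 5 of 22 at the limit, all higher, among them ATF3, a stress transcription factor, at 0.38 ± 0.12, SESN2, a sestrin that p53 also drives, at 0.34 ± 0.12, SDF2L1 at 0.38 ± 0.34 and HSP90B1, an endoplasmic reticulum chaperone, at 0.24 ± 0.09. A dimmer ATF3 probe stood at -0.19 ± 0.59. The 5 became 1 without experiment 3 and 0 without scaling or without the replicate block. Without scaling the median of these 22 was -0.10, against -0.22 for all genes. Immediate early genes had 4 of 25 at the limit, all higher, with CCN1 at 0.45 ± 0.43, NR4A3 at 0.29 ± 0.06 and DUSP6 at 0.30 ± 0.17, and the 4 became 7 without experiment 2 and 0 without experiment 3, without scaling or with no replicate block. Contractile genes gave 3 of 24, TAGLN at 0.41 ± 0.21, ACTG2 at 0.28 ± 0.14 and ACTA2 at 0.32 ± 0.30, all higher. A second TAGLN probe gave 0.22 ± 0.33, negative in experiment 2. The 3 became 1 without experiment 1 or 3, 5 without experiment 4 and 0 without scaling or the replicate block. In hypoxia and glycolysis genes 2 of 25 were at the limit, ALDOA at 0.29 ± 0.20 and ADM at 0.36 ± 0.36. A second ALDOA probe gave 0.16 ± 0.20, negative in experiment 1. These 2 became 7 without experiment 2 and 1 without experiment 1 or 3. They became 0 without experiment 4, with quantile or median scaling, or without scaling or the replicate block. Over all 12703 genes the higher count of 255 became 500 without experiment 2.

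GDNF, a neurotrophic factor, read 12.29, 11.99, 12.20 and 12.20 in irradiated and 11.83, 11.22, 12.09 and 11.59 in bystander cells. GDNF differed by 0.49 ± 0.28, with the same sign in 4 of 4 experiments. A dimmer probe gave 0.67 ± 0.68, with -0.34 in experiment 2. GDNF was the 1 gene of 26 complement, surface and growth factor genes at the unadjusted limit. The count was 2 without experiment 2 or 4, 4 with no filter on dim probes, and 0 without scaling or with the controls in the fit. THBS1, thrombospondin, at 0.34 ± 0.36, was the 1 gene of 31 collagen and matrix genes at the limit, and a second THBS1 probe stood at 0.22 ± 0.49, negative in experiment 2. Without experiment 1 that list had 0 higher and 1 lower, without experiment 3 it had 0 and without experiment 4 it had 2 higher, and 0 reached the limit under any other scaling or with no replicate block. In the matrix protease, cholesterol, NRF2 and heat shock lists 0 genes reached it in either direction in the main fit of all 4 experiments. Their medians were 0.10, 0.05, -0.00 and -0.00. Their brightest members were PLAU at 0.01 ± 0.24, SREBF1 at 0.11 ± 0.40, FTH1 at -0.01 ± 0.09 and HSPA8 at -0.08 ± 0.30. Without experiment 2 the cholesterol list had 3 higher and the protease list 1 lower. The cholesterol list also had 1 higher with normexp, the slide as a random block or the pooled spread, and 1 lower with no filter. The NRF2 list had 1 higher without experiment 1, 1 lower without experiment 4 and 1 in each direction with no filter on dim probes. It had 1 higher with normexp and 1 lower with the pooled spread. The chromatin regulators KDM5B (JARID1B), a histone demethylase, and the deacetylases HDAC1 and HDAC2 stood at -0.09 ± 0.23, -0.00 ± 0.11 and -0.05 ± 0.24. SAT1, the polyamine acetyltransferase, was at -0.08 ± 0.24. Second probes of the other sign stood at 0.13 ± 0.17 for KDM5B, -0.07 ± 0.21 for CXCL2, 0.01 ± 0.08 for CXCL5 and 0.03 ± 0.19 for HSPA8, and 4 further FTH1 probes ran from 0.09 to 0.34.

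**Figure D4:**
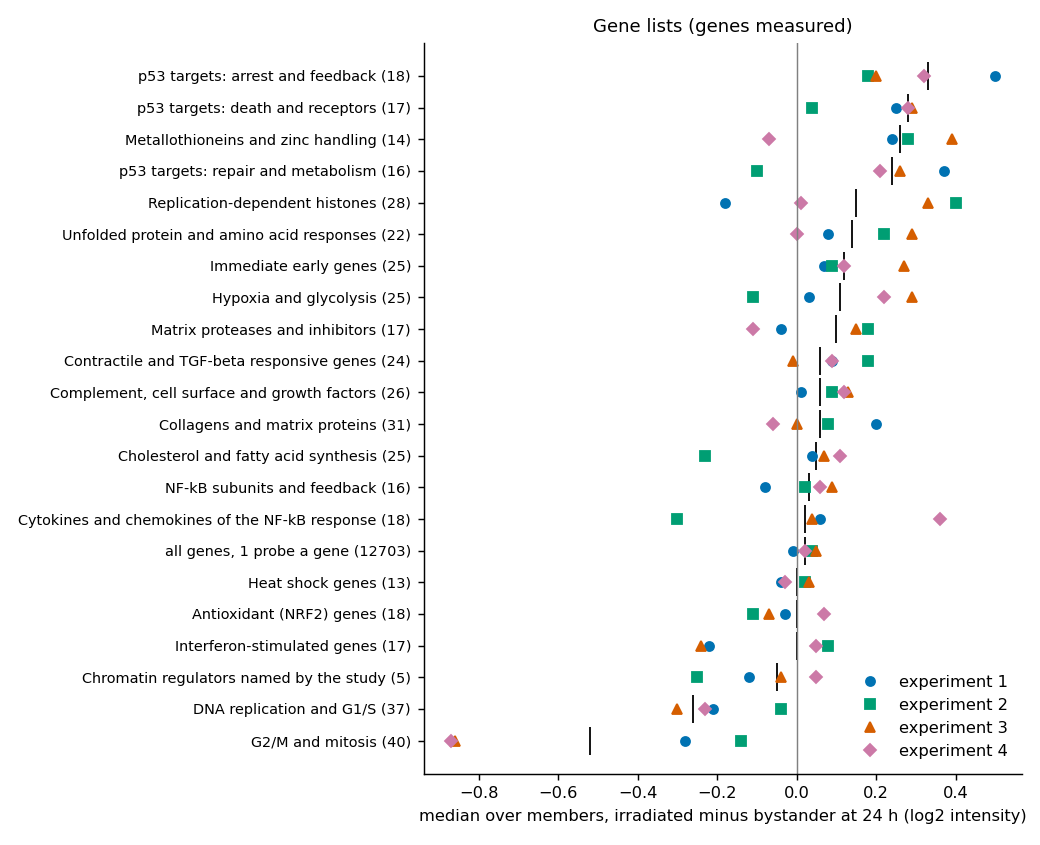
Median difference between irradiated and bystander cells at 24 h (log2 intensity) over the measured genes of each list other than the cell type markers, with a point per experiment and a tick at the median of the mean differences. The G2/M list lies farthest to the left with -0.86 and -0.87 in experiments 3 and 4, and of the lists drawn the arrest and feedback targets of p53 lie farthest to the right with 0.50 in experiment 1.

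The irradiated and bystander arrays of the earlier hours were compared in the same way. The same paired fit called 0 probes at 0.5 and 1 hours and 26 at 2 hours, all higher in irradiated cells (0.103%). At 4 hours 65 were higher (0.257%) and 1 lower (0.00396%), and the 6 hour arrays gave 5, all higher (0.0198%). Of the 65 probes that were higher at 4 hours, 64 had a positive difference at 24 hours and 36 (55.4%) an unadjusted p below 0.05 there, against 1.79% of all probes. Single experiments weighed heavily on the calls of these hours: leaving out experiment 1 turned the 66 calls of the 4 hour arrays into 3, and leaving out experiment 2 turned them into 314. The 26 calls of 2 hours became 13 without experiment 1 and 40 without experiment 3. The 5 calls of 6 hours became 124 without experiment 1 and 0 without any other. In the earliest arrays 63 probes were called at 0.5 hours without experiment 1 and 2201 at 1 hour without experiment 4. The median difference of the 65 probes higher at 4 hours was 0.99 there, where it had chosen them, and 0.39 at 24 hours. The 5 probes of 6 hours, for TNFRSF10C, FDXR, BBC3, DDB2 and VWCE, were all higher again at 24 hours with unadjusted limma p-values from 6.21e-05 to 0.00293.

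The change from 4 to 24 hours was tested on the differences within experiments, and 4 probes (0.0158%) passed. BBC3 went from 1.99 ± 0.54 to 0.62 ± 0.29 (limma adjusted p = 0.0107), PPM1D from 0.98 ± 0.26 to 0.18 ± 0.16 (adjusted p = 0.0107), BTG2 from 1.77 ± 0.63 to 0.41 ± 0.22 (adjusted p = 0.023) and ARHGEF3 from 0.91 ± 0.11 to 0.15 ± 0.14 (adjusted p = 0.0447). The gap between irradiated and bystander cells was smaller at 24 hours in each. None of the 4 passed without scaling, or without experiment 1 or experiment 4. Other BBC3 probes did not pass, among them a dim probe at 1.42 ± 0.32 and then 0.49 ± 0.53. FDXR, at 1.13 and 0.74, and VWCE, at 1.12 and 0.81, did not pass for a change (limma adjusted p = 1.00 for both). Between 6 and 24 hours 0 probes passed with limma (0%). Of the 25246 probes tested, 1143 had an unadjusted p below 0.05 there, and 670 between 4 and 24 hours. None of the 18 slides held arrays of more than 1 time point, so time and slide cannot be told apart in these tests. At both 4 and 24 hours the irradiated and bystander arrays of experiments 1, 2 and 4 shared a slide, and those of experiment 3 did not.

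For the mitosis genes the median difference over the list, averaged over experiments, began at 0.15 ± 0.20 at 0.5 hours. It reached -0.15 ± 0.24 by 4 hours, -0.38 ± 0.43 by 6 hours and -0.54 ± 0.38 after a day. In experiments 3 and 4 the list already stood at -0.84 and -0.66 at 6 hours, where experiments 1 and 2 gave 0.01 and -0.03. The combined p53 lists stood at -0.03 ± 0.04 at 0.5 hours, had their highest value of 0.62 ± 0.06 at 4 hours, and stood at 0.26 ± 0.16 after a day.

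**Figure D5:**
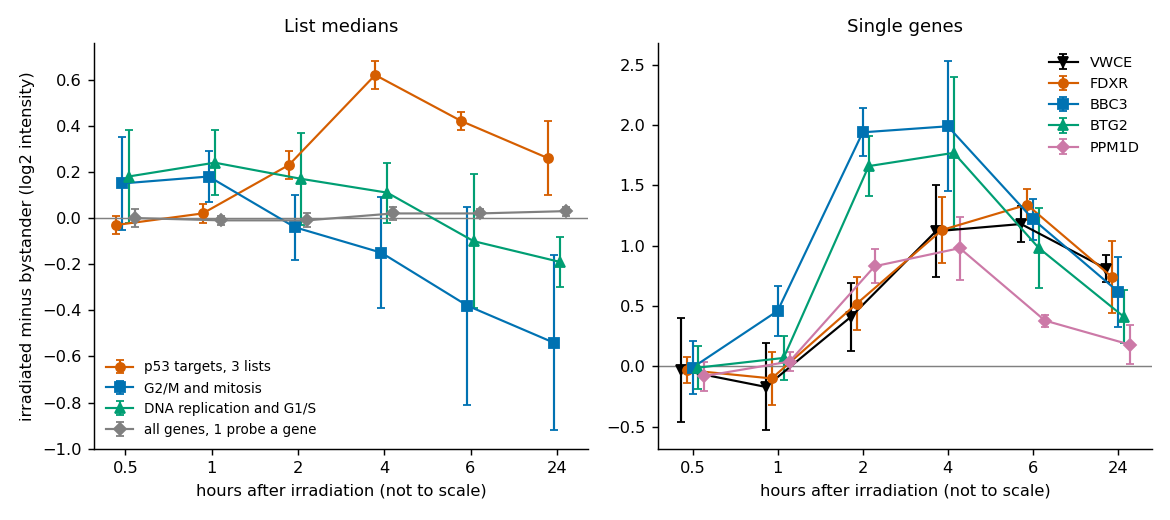
Difference between irradiated and bystander cells (log2 intensity) at 6 time points, as the mean ± SD over 4 experiments of list medians on the left and of single genes on the right. The p53 lists peak at 0.62 at 4 h and stand at 0.26 at 24 h, the mitosis list goes down to -0.54, and from 4 to 24 h BBC3 goes from 1.99 to 0.62 while VWCE goes from 1.12 to 0.81.

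Beside the controls of 24 hours, the median of the 40 mitosis genes was -0.31 in irradiated and 0.15 in bystander cells, and that of the arrest and feedback targets 0.40 and 0.03. The median level of the 51 p53 targets was 11.64, 11.58, 11.58 and 11.18 in irradiated cells. It was 11.14, 11.47, 11.37 and 11.07 in bystander cells and 10.65, 11.16, 11.60 and 11.21 in controls. Both treatments stood above control in experiments 1 and 2. In experiments 3 and 4 irradiated cells stood just below control and bystander cells farther below it. FDXR stood at 0.92 ± 0.52 in irradiated and 0.18 ± 0.38 in bystander cells, and RRM2 at -0.92 ± 1.88 and -0.02 ± 1.73. Both comparisons with control use the same 4 control arrays. For the mitosis genes the control median was 9.46 in experiment 3, above both treated arrays of that experiment, and 10.30 in experiment 4, below both. RRM2 thus spread over 1.88 between experiments against control and over 0.36 in the direct difference.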

How the data were processed

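The deposited files hold one-colour Agilent whole-genome array intensity values from 72 arrays, 1 per sample, which the authors extracted with Feature Extraction 9.1.3.1 as background-subtracted processed signals. Control spots were left out, leaving 43376 spots of 41000 probes. Spots flagged as non-uniform were set to missing. Intensities were scaled to a common 75th percentile (10.15 in log2), floored at 1 and log2 transformed, and spots of a probe were averaged. Probes dim or non-uniform on over 10% of the 72 arrays were dropped, leaving 25246. The table of log2 values deposited by the authors equalled log2 intensity within 0.001 for 99.9% of values on the 24 hour arrays, and served, after scaling to its own 75th percentiles, as an alternative.

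Irradiated and bystander arrays of 24 hours were fitted with limma 3.58.1 (R 4.3.3), with treatment and the replicate block, an intensity trend and 3 residual degrees of freedom. P-values were adjusted by Benjamini-Hochberg over 25246 probes, with a limit of 0.10, and changes between times were tested on within-experiment differences. Replicate numbers pair the samples because each experiment drew its samples from its own pool of cells, and same-numbered arrays correlated at 0.701, 0.419, 0.895 and 0.845 in their deviations from group means (different numbers 0.576 and 0.456 between experiments 1 and 2, otherwise below 0). P-values weigh the spread between these 4 experiments on 1 line together with a spread borrowed from probes of like intensity (5.42 prior degrees of freedom). The number of arrays limits the precision. The fit was tested on simulated data, and no result given here rests on that test.

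Named genes were the 10 in each direction with the smallest p among those of the same sign in all 4 experiments, up to 4 members per list and direction with an unadjusted p below 0.05 (otherwise the brightest member) and 21 genes taken whatever their values. POLH, RRM2B, PMAIP1, TP53I3, BCL2L1, PLK1, CCNB1, CCNB2, CDK1, MKI67, CKS2, ECT2, PCNA, CCND1 and ARHGEF3 were added after their values were seen. A list used the brightest tested probe of each gene. Genes, lists and the comparison itself were chosen with earlier results of these data known. Symbols were updated through RefSeq by accession for 23680 probes, by symbol for 2802 and by synonym for 1128, and 13390 kept the name in the file. Alternatives covered scaling, background correction, filters, the block, the slide, pooled spread and leaving out each experiment.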

Additional observations from a re-analysis of the deposited data

Results flagged for a closer look

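By a test of the difference itself, the gap between irradiated and bystander cells differed between 4 and 24 hours for BBC3, BTG2 and PPM1D. The changes were -1.37 on the log2 scale on a BBC3 probe, -1.36 and -0.80 (limma, adjusted p = 0.0107, 0.023 and 0.0107). All 3 genes are p53 targets, of death, arrest and feedback, and in each the gap was smaller at 24 hours. No slide held arrays of both times, so time and slide cannot be told apart in these tests.

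In 4 of 79 named probes 1 experiment lay far from the other experiments, and chance flags about 1 in 20 groups. The potassium channel gene KCNK3 differed by -0.32 in experiment 4, nearer to 0 than elsewhere, in the experiment where both treatments read 6.16 and 6.48 against a control of 12.16. CENPA differed by -1.17 in experiment 4, farther from 0 than elsewhere. FEN1 differed by -0.46 in experiment 1. DUSP6, a phosphatase of ERK signalling, differed by 0.05 in experiment 2.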

How the results depend on the processing

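At 24 hours 0 probes were called in either direction under every alternative run but 2. Without scaling 3 were called lower, and with the spread pooled over 6 time points, replicate block kept, 22 were called higher and 10 lower, 8 of them as list members. Leaving out an experiment called 0 in each direction. With no replicate block the unadjusted counts fell from 452 and 219 to 31 and 7. The 4 probes whose gap differed between 4 and 24 hours became 0 without scaling and 0 to 3 when an experiment was left out. At 0.5, 1, 2, 4 and 6 hours the main counts were 0, 0, 26, 66 and 5. Without scaling they were 9, 511, 17, 22 and 140, and with no replicate block 0, 1 and 0 at 2, 4 and 6 hours. Leaving out an experiment gave 0 to 63, 0 to 2201, 13 to 40, 3 to 314 and 0 to 124. The cause was not tested.

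Of the values of single genes under the alternatives, 1193 kept their direction and side of the threshold. With the pooled spread, replicate block kept, 14 passed it, and 54 changed sign under an alternative. Part of these sign changes came from the unscaled fit, in which the median of all genes stood at -0.22. Without scaling NFKBIA, PLAU, SREBF1, KRT18, CD14, PPM1D, IL1B, CXCL2 and CXCL3 were at -0.20, -0.23, -0.13, -0.05, -0.01, -0.06, -0.23, -0.21 and -0.23. With quantile normalization NFKBIA, PLAU, IL1B, CXCL2 and CXCL3 were at -0.06, -0.13, -0.02, -0.04 and -0.03. Median scaling gave PLAU, IL1B and CXCL3 -0.02, -0.01 and -0.02. Normexp background correction gave NFKBIA, PLAU, IL1B and CXCL3 -0.02, -0.00, -0.02 and -0.02. With the authors' table PLAU, IL1B, CXCL2 and CXCL3 were at -0.03, -0.02, -0.00 and -0.03. With slide as a random block NFKBIA, SREBF1, HDAC1, COL1A2, CXCL2 and CXCL3 were at -0.05, -0.06, 0.02, 0.02, -0.03 and -0.01. Leaving out an experiment gave CD14 -0.00 to 0.37, COL1A2 -0.15 to 0.03, CXCL2 -0.10 to 0.19, CXCL3 -0.19 to 0.29, CXCL5 -0.10 to 0.01, CXCL8 -0.24 to 0.15, FTH1 -0.04 to 0.03, HDAC1 -0.05 to 0.04 and HDAC2 -0.11 to 0.06. It gave HSPA8 -0.17 to 0.06, IL1B -0.14 to 0.17, NFKBIA -0.07 to 0.11, PLAU -0.09 to 0.08, SAT1 -0.15 to 0.03, SREBF1 -0.08 to 0.23 and TEK -0.20 to 0.04.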
